A study of Homo sapiens with 36 samples.

Results

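Focal adhesions are the sites at which a cell grips the matrix beneath it, and the 10 genes described here encode proteins on their cytoplasmic side: PARVA, ZYX, LPP, PXN, TLN1, ILK, VCL, FERMT2, TES and LIMS1. They were chosen by name, with earlier results of these data known, together with every probe set annotated to them. They are 10 of the 19775 genes that probe sets with a single gene symbol represent on the array. RNA was compared between the pseudopod fraction (PS), scraped from the lower side of a porous filter, and the cell body fraction (CB), scraped from its upper side, after cells had been kept on the filter for 24 h. Cells extend protrusions through the pores while the nucleus and most of the cell stay above, so both fractions hold parts of the same cultured cells. The 12 groups were the PS and CB fractions of 6 human tumour lines with 3 arrays each, 36 arrays in all: U87 and U251 (glioblastoma), HT1080 (fibrosarcoma), DU145 (prostate carcinoma), MDA231 (breast carcinoma) and MDA435 (long used as a breast cancer line, of disputed origin). The labels name no drug and no introduced allele for any of these groups, and PS and CB were set against each other within each line. The arrays carry oligonucleotide probe sets and were hybridised with RNA amplified in 2 cycles from 100 ng of total RNA, so a value is a gene's share of the RNA in a fraction and not an amount per cell. In such bulk fractions, fewer protrusions of a kind and less RNA in each protrusion cannot be told apart. Nothing in the labels says whether replicates were separate cultures, so the p-values below measure only the spread between these arrays.

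Adhesion proteins form layers between the membrane and the actin cytoskeleton. Integrins cross the membrane, and talin (TLN1) and the kindlins (FERMT2 encodes kindlin-2) bind their cytoplasmic tails and switch them to the active state. Vinculin (VCL) binds stretched talin and ties it to actin; integrin-linked kinase (ILK), PINCH (LIMS1) and parvin (PARVA encodes alpha-parvin) act as a complex, and paxillin (PXN), zyxin (ZYX), the lipoma-preferred partner (LPP) and testin (TES) are scaffold proteins, with LIM domains in each. These proteins assemble and turn over at the tips of protrusions as a cell moves.

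Every array correlated best with another array of its own line, and no array repeated another. The labels' lineages were set against marker genes: 5 melanocytic genes summed to 2966 to 5872 intensity units on the MDA435 arrays and to 45.6 to 153 on the others, and 5 glial or neural genes to 4604 to 8195 on the U251 arrays but to 104 to 747 on the U87 arrays. That glial or neural sum was 259 to 598 on the MDA435 PS arrays and 972 to 1147 on its CB arrays, so U87 did not stand above MDA435. Arrays of MDA231, MDA435 and, less widely, DU145 disagreed within groups on the epithelial cadherin CDH1. CDH1 read 4.5, 13.7 and 1299 on the MDA231 PS arrays, against 8.2, 1778 and 2.2 on the MDA231 CB arrays. In MDA435 it read 2073, 922 and 33.2 on the PS arrays, against 32.8, 1044 and 2463 on the CB arrays. So 1 array of each MDA231 fraction was high, and 1 array of each MDA435 fraction was low. In MDA231, 6 of the 9 adhesion genes tested (PARVA, LPP, PXN, TLN1, ILK and FERMT2) were at their lowest on both CDH1-high arrays, PS replicate 3 and CB replicate 2, where 24% of all genes tested were. In MDA435, ZYX, LPP, PXN and ILK were at their highest on both CDH1-low arrays, PS replicate 3 and CB replicate 1 (18.8% of all genes), and TES was at its lowest on both (25.3%). In DU145, CDH1 read 319, 1489 and 1349.9 on the PS arrays, against 2237, 2020 and 857 on the CB arrays. On the DU145 PS array low in CDH1, replicate 1, PARVA, ZYX, LPP, PXN, TLN1, ILK and VCL were at their highest of the 3 PS arrays (40.2% of all genes). ZYX, TLN1 and VCL were also at their highest on the CDH1-low CB array, replicate 3 (37% of all genes, and 21.8% on both arrays). LPP, PXN, ILK, FERMT2 and TES were instead at their lowest on that CB array (41.7%), and TES on both (20%). The differences below were computed again without the 4 arrays of MDA231 and MDA435, and without these and the DU145 arrays low in CDH1.

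Averaged over the 6 lines, 6 of the adhesion genes were higher in PS, 1 was lower and 2 were not called. Read from the brightest probe set of each gene, PARVA rose by 0.83 ± 0.17 on the log2 scale (SE), ZYX by 0.50 ± 0.08, and LPP (0.44 ± 0.07), PXN (0.34 ± 0.09), TLN1 (0.26 ± 0.10) and ILK (0.24 ± 0.07) rose by less. PARVA was at 0.31 when its probe sets were averaged, so its lead does not hold there. VCL fell by 0.81 on the log2 scale (SE 0.07), against the direction of the others. FERMT2 (-0.04 ± 0.08) and TES (0.02 ± 0.10) did not pass the test, and LIMS1 could not be tested because its 3 own probe sets were too dim. Differences are PS minus CB of log2(intensity + 16), which understates the change of dim genes, and a gene was called at an adjusted p under 0.05 (limma, Benjamini-Hochberg over the 15399 genes tested). Among all genes tested, 29.5% were called higher in PS and 20.8% lower. The 6 risers among 9 genes were above the first share, while the 1 faller was no more than the second. Because the genes were chosen with earlier results of these data known, these counts are a description and not a test. Of all calls, 58.7% were higher, against 71.5% after the arrays were set to equal medians and 64.9% after quantile normalization, and the 6 and 1 calls of the adhesion genes stood under both. Genes called higher numbered 4550 of 15399 as deposited, 6325 with equal medians and 5196 with quantile normalization. The median difference of the 9 genes was 0.26, and that of all genes tested was 0.05. With the 6 line differences as the units of the test, the same 6 genes were called higher and VCL lower (29% and 19.3% of all genes). In that test LPP was not called when probe sets were averaged (adjusted p = 0.24), and TLN1 was not called then (adjusted p = 0.116) or without MDA231 and MDA435 (adjusted p = 0.0825). Without the 4 discordant arrays the same calls stood, with PARVA at 0.84, ZYX at 0.54, LPP at 0.45, PXN at 0.36, TLN1 at 0.28, ILK at 0.25 and VCL at -0.82. Without the DU145 arrays low in CDH1 as well, the averaged calls were again 6 and 1, with PARVA at 0.77 and ZYX at 0.50.

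**Figure D1:**
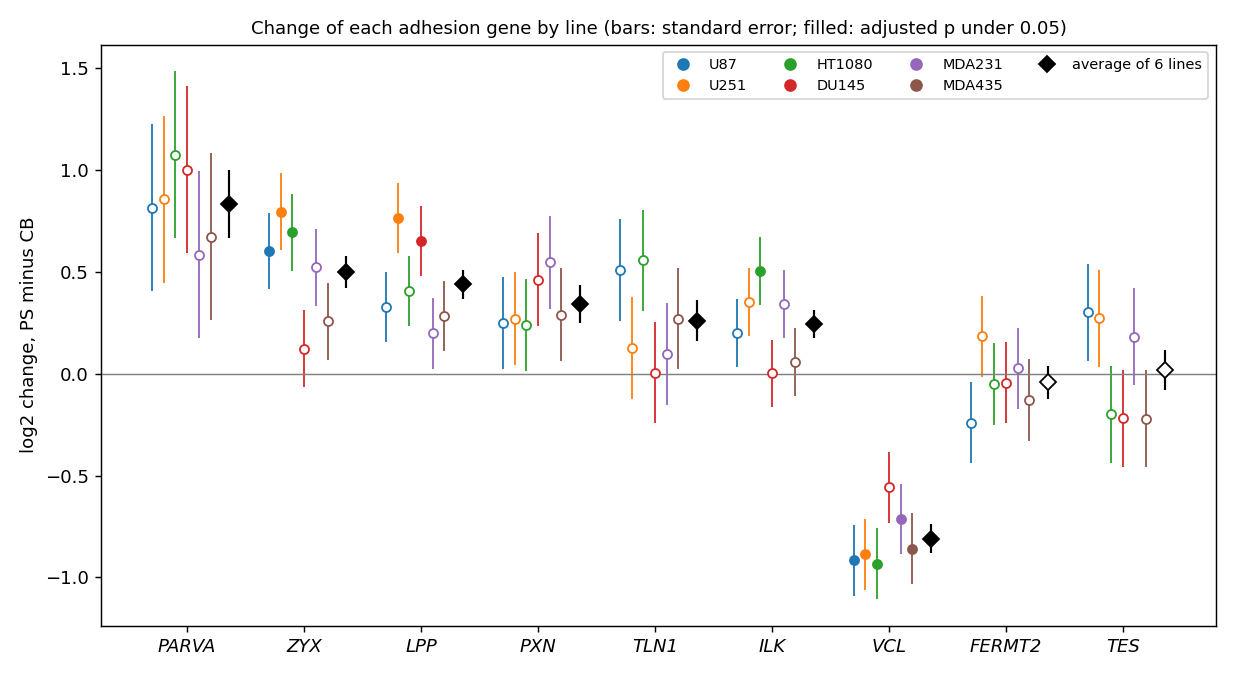
Log2 difference (PS minus CB of log2(intensity + 16), vertical axis) of each of 9 adhesion genes (horizontal axis) in each of 6 lines (circles, filled where the adjusted p was under 0.05) and averaged over them (diamonds); bars are standard errors. PARVA, ZYX, LPP, PXN, TLN1 and ILK lay at or above 0 in all 6 lines and VCL below it in all 6, while FERMT2 and TES fell on both sides.

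All 6 risers had a positive difference in 6 of 6 lines, as 27.8% of all genes did, although in DU145 the fitted differences of TLN1 (0.006) and ILK (0.0017) were next to 0 and their mean intensities were no higher in PS. VCL had a negative one in 6 of 6 lines, as 17.1% did. No adhesion gene passed the test for a difference between lines in its PS against CB change (limma's F test, 0 of 9, lowest adjusted p of 0.711, for ZYX; 1.18% of all genes passed). With array weights ZYX did pass it (adjusted p = 0.0139). A p that misses the threshold does not show that the lines acted alike, and with 3 arrays on each side the intervals of single lines were wide. The fit uses 1 spread per gene for all 12 groups, so a gene's standard error is the same in every line. The groups' residual SD ran from 0.22 in the HT1080 CB arrays to 0.43 in the MDA435 PS arrays. A call or a miss in 1 line thus does not rest on that line's own spread. Counted line by line, the genes called higher and lower were 1 and 1 in U87 (11.7% and 11.8% of all genes), 2 and 1 in U251 (5.36% and 9.33%) and 2 and 1 in HT1080 (12.8% and 12%). They were 1 and 0 in DU145 (0.825% and 2.16%), 0 and 1 in MDA231 (1.18% and 4.9%) and 0 and 1 in MDA435 (2.96% and 8.81%). In U87, and for the lower calls of U251, HT1080 and MDA435, 1 call among 9 genes was close to the share of all genes. The calls of risers in single lines were ZYX in U87, U251 and HT1080, LPP in U251 and DU145, and ILK in HT1080, and all 5 calls of a faller were VCL.

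**Figure D2:**
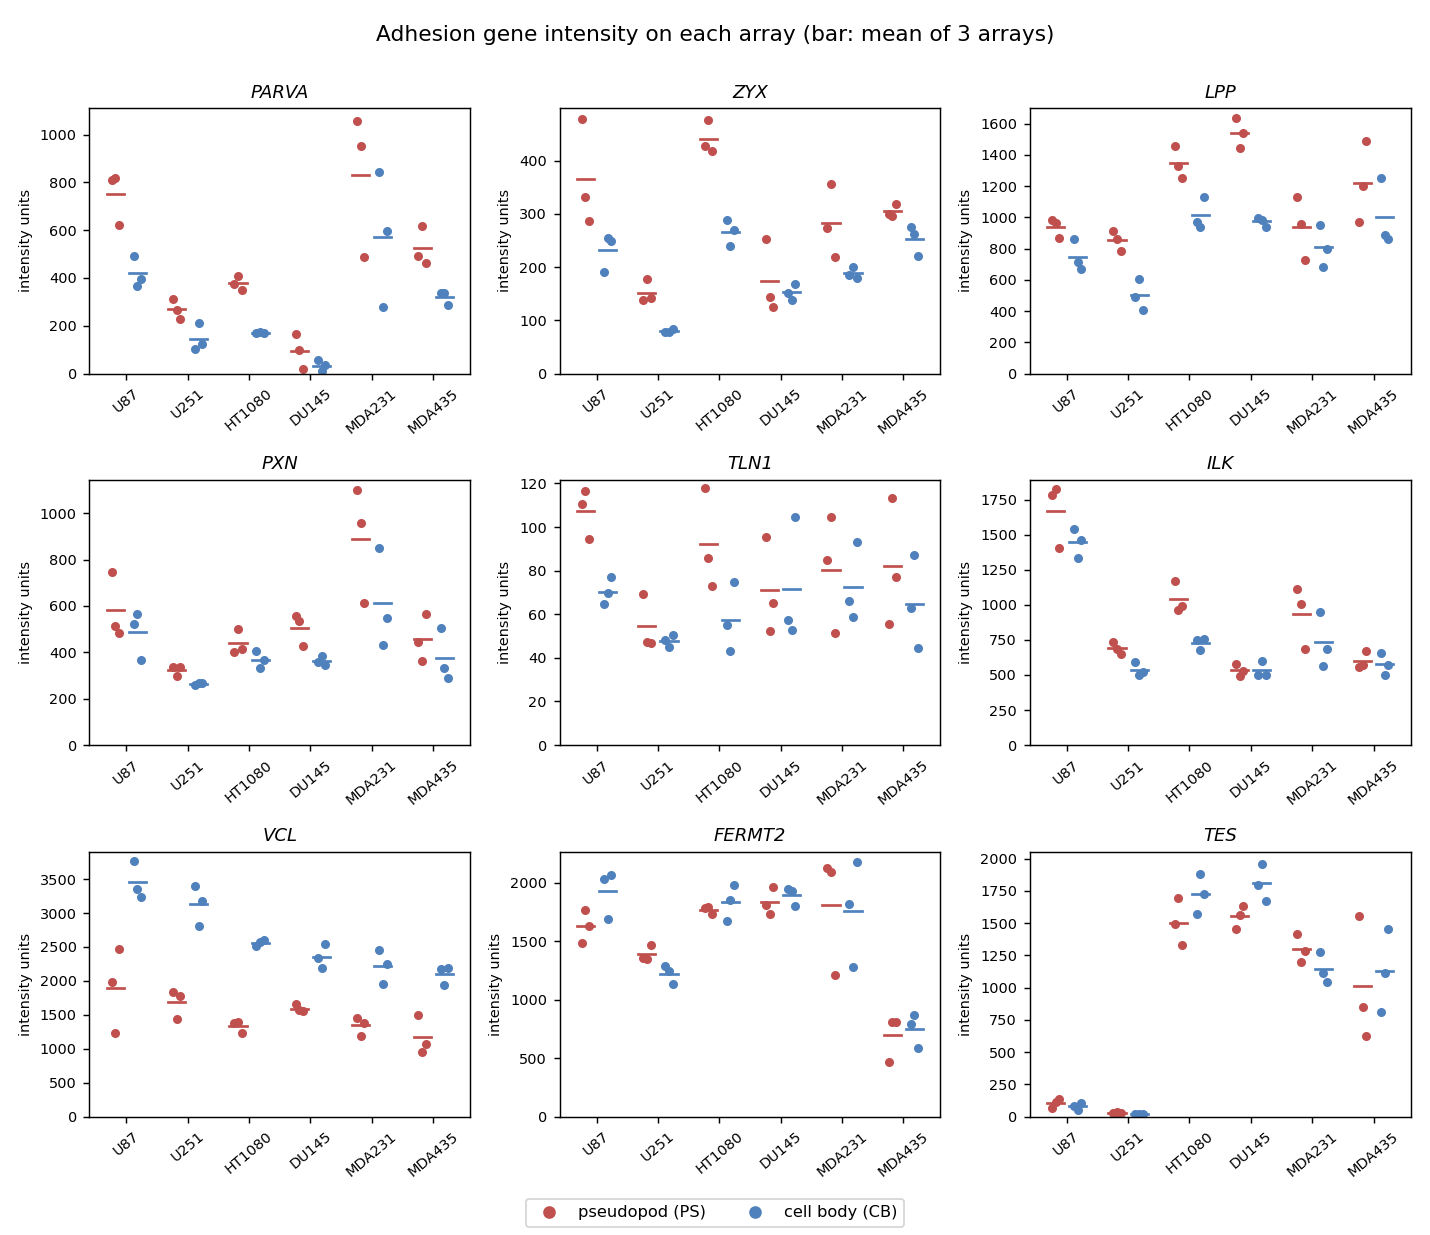
Intensity (vertical axes, linear units from 0) of 9 adhesion genes on each of the 36 arrays, by line (horizontal axes), with PS arrays left of CB arrays and a bar at each mean of 3 arrays. VCL is lower on all PS arrays than on all CB arrays of the same line in all 6 lines, PARVA is higher without overlap in 4 lines and ZYX in 5, and TES is near the bottom of its axis in U87 and U251.

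The integrin-tail binders talin and kindlin-2 differed in their calls, though the difference between the 2 genes was not tested. TLN1 averaged 81.2 ± 25 intensity units on the PS arrays and 64.2 ± 17.6 on the CB arrays (SD over the 18 arrays of 6 lines in each fraction, as for each mean below), a difference of 0.26 ± 0.10 (SE, adjusted p = 0.0332). In U87, TLN1 read 110.4, 117 and 94.5 on the PS arrays, against 64.6, 69.8 and 76.9 on the CB arrays. These groups did not overlap, and U87 was the 1 line of 6 in which they did not. That pattern, with PS above CB, held for 17% of all genes in U87. In HT1080, TLN1 read 118, 85.8 and 73 on the PS arrays, against 54.9, 43.3 and 74.6 on the CB arrays, and in DU145 its difference was 0.01. TLN1 was called in no single line, with line differences between 0.01 and 0.56. Its averaged call turned on single arrays and was lost (adjusted p 0.0529 to 0.064) when any 1 of 10 arrays was left out, namely PS replicate 1 of U251, HT1080 or DU145, PS replicate 2 of MDA231 or MDA435, CB replicate 1 or 2 of DU145, and CB replicate 2 of HT1080 or MDA231 or replicate 3 of MDA435. It was also lost with the mean of all its probe sets (0.11, adjusted p = 0.0802), and with lines as units it was lost without any 1 of 8 of these arrays, all but HT1080 PS replicate 1 and CB replicate 2 (adjusted p 0.0562 to 0.0867). The mean of all TLN1 probe sets takes in 232763_at, too dim to test at 6.41 intensity units in PS and 10.2 in CB. The tested ones, 236132_at and 203254_s_at, were dim too, averaging 72.7 and 37.3 over all arrays. The values above come from 236132_at. On its own, 203254_s_at was higher by 0.27 ± 0.07 (SE, adjusted p = 0.00189 over all probe sets tested), with a positive difference in 6 of 6 lines. Whether that call turns on single arrays was not tested.

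FERMT2 averaged 1522 ± 457 intensity units on the PS arrays and 1566 ± 485 on the CB arrays, a difference of -0.04 ± 0.08 (SE, adjusted p = 0.7, 95% interval -0.21 to 0.12). In MDA435, where it was dimmest, FERMT2 read 470.5, 810.4 and 810 on the PS arrays, against 796, 873 and 586 on the CB arrays. In U87, FERMT2 read 1488.5, 1765 and 1630.5 on the PS arrays, against 2033, 1689 and 2066 on the CB arrays, and its difference there, -0.24, was the lowest of the 6 lines. The highest was 0.18 in U251, the 1 line of 6 in which its groups did not overlap, with 1349 to 1469.5 on the PS arrays, against 1135 to 1285 on the CB arrays. All PS arrays above all CB arrays was the pattern of 22% of all genes in U251. Within the other 5 lines the PS and CB arrays of FERMT2 overlapped. These values come from 209210_s_at. Its dimmer probe sets were not called either: 209209_s_at was at 0.02 ± 0.10 (SE, adjusted p = 0.883). The other, 214212_x_at, was at 0.21 ± 0.09 (SE, adjusted p = 0.057), with a positive difference in 5 of 6 lines.

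VCL, whose product couples talin to actin filaments, was the adhesion gene that fell. It averaged 1505 ± 357 intensity units on the PS arrays and 2637 ± 537 on the CB arrays, a fitted PS level 0.57 times that of CB (adjusted p = 1.43e-10). In U87, VCL read 1977, 1229 and 2473.5 on the PS arrays, against 3766, 3348.5 and 3241 on the CB arrays. In U251, VCL read 1839.5, 1446 and 1780.4 on the PS arrays, against 3399, 2803 and 3179 on the CB arrays. All 3 PS arrays of both glioblastoma lines lay below all 3 CB arrays. In HT1080, VCL read 1384.5, 1389 and 1239 on the PS arrays, against 2516, 2580.4 and 2599.8 on the CB arrays. In DU145, VCL read 1653, 1572 and 1555 on the PS arrays, against 2338, 2193 and 2538.5 on the CB arrays. HT1080 had the tightest CB arrays, and DU145 the smallest difference of the 6 lines. In MDA231, VCL read 1461, 1195.5 and 1377.5 on the PS arrays, against 2452, 1956 and 2244 on the CB arrays. In MDA435, VCL read 1496, 954 and 1067 on the PS arrays, against 2179, 1946 and 2191 on the CB arrays. The groups thus overlapped in none of the 6 lines; the share of all genes with all PS arrays below all CB arrays was 14.3% in U87, 16.9% in U251, 18.4% in HT1080, 14.9% in DU145, 11.9% in MDA231 and 12.3% in MDA435. The differences were -0.92 in U87, -0.89 in U251, -0.93 in HT1080, -0.71 in MDA231 and -0.86 in MDA435, all called, and -0.56 in DU145 (adjusted p = 0.0725). The MDA231 call was lost without its PS replicate 2 (adjusted p = 0.0885) or its CB replicate 1 (adjusted p = 0.0768), and with equal array medians (-0.55, adjusted p = 0.0609). Fitted on a line's 6 arrays alone, the calls of U87 (adjusted p = 0.0596), MDA231 (0.144) and MDA435 (0.0632) were lost, and the MDA435 call was also lost with the mean of both probe sets (adjusted p = 0.0847). Over all genes tested, 6.77% had a lower averaged difference than VCL.

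VCL has 2 probe sets on the array. The values above come from 200931_s_at; the other, 200930_s_at, averaged 20.9 ± 6.07 intensity units on the PS arrays and 24.9 ± 8.01 on the CB arrays and was not called (-0.14 ± 0.09, SE, adjusted p = 0.229). Its level is near the filter of 24.4 intensity units, the median of all values, and both carry the suffix _s_at, used for probe sets that match more than 1 transcript. The size of VCL's fall therefore rests on 1 probe set, and with the mean of both it was -0.48, still called lower.

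The ILK, PINCH and parvin complex was represented by PARVA and ILK, both higher in PS. PARVA averaged 474 ± 291 intensity units on the PS arrays and 277 ± 213 on the CB arrays, a fitted 1.78-fold higher level in PS (adjusted p = 0.00012), and its difference exceeded that of 99.8% of the genes tested. In U87, PARVA read 809.5, 817 and 621 on the PS arrays, against 492, 368 and 397 on the CB arrays. In U251, PARVA read 313, 267 and 226.5 on the PS arrays, against 103, 209.8 and 125 on the CB arrays. In both, the lowest PS array lay above the highest CB array. In HT1080, PARVA read 374.5, 406 and 351 on the PS arrays, against 168, 173 and 169 on the CB arrays. In DU145, PARVA read 167, 100.3 and 19.3 on the PS arrays, against 56.7, 9.9 and 33.6 on the CB arrays. HT1080 again showed no overlap, with 3 nearly equal CB arrays, whereas the DU145 groups were dim, spread widely and overlapped. In MDA231, PARVA read 1057, 950.1 and 488 on the PS arrays, against 841, 279 and 598 on the CB arrays. In MDA435, PARVA read 492, 618.5 and 462 on the PS arrays, against 338.5, 336.5 and 288 on the CB arrays. The MDA231 groups overlapped, with the CDH1-high arrays lowest in each fraction, and the MDA435 groups did not. All PS arrays above all CB arrays was the pattern of 17% of all genes in U87, 22% in U251, 29.5% in HT1080 and 12.3% in MDA435. Although the line differences ran from 0.58 in MDA231 to 1.08 in HT1080, none passed the test in a single line. The standard error of each was 0.41, taken from PARVA's spread over all 12 groups and not from that line's arrays alone. HT1080 came nearest (adjusted p = 0.0537), and it passed there under 8 of 13 alternative settings.

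PARVA has 7 probe sets, all tested, and they did not move together. Besides 217890_s_at, described above, 222454_s_at (0.87 ± 0.21), 213675_at (0.54 ± 0.12) and 222455_s_at (0.36 ± 0.10) were called higher in PS. The fainter 1563458_at (-0.23 ± 0.08) and 215418_at (-0.29 ± 0.08) were called lower, and 235279_at (0.06 ± 0.10) was not called. The 4 risers were the 4 brightest, averaging 376, 212, 161 and 79.2 intensity units over all arrays, while the other 3 averaged 52.9, 44.9 and 22.4. With the mean of all 7 in place of the brightest, PARVA's averaged difference was 0.31, still called higher (the highest adjusted p over all 13 alternatives was 0.00298).

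ILK, a scaffold with a kinase-like fold, averaged 911 ± 413 intensity units on the PS arrays and 759 ± 338 on the CB arrays, a difference of 0.24 ± 0.07 (SE, adjusted p = 0.00353). In HT1080, ILK read 1167, 959.9 and 994 on the PS arrays, against 746, 678 and 755 on the CB arrays. In U251, ILK read 735, 683 and 652 on the PS arrays, against 591, 502.5 and 521 on the CB arrays. These were the 2 lines in which its groups did not overlap, and HT1080 the 1 in which it was called. Non-overlap with PS above CB was found for 29.5% of all genes in HT1080 and 22% in U251. In DU145, ILK read 578, 493 and 529 on the PS arrays, against 502, 597 and 501 on the CB arrays, a difference of 0.00. In U87, where its level was highest, ILK read 1785.5, 1824 and 1405 on the PS arrays, against 1543, 1337 and 1459 on the CB arrays. Both of those lines showed overlapping groups. The HT1080 call was lost without HT1080 PS replicate 1 (adjusted p = 0.115) or CB replicate 2 (adjusted p = 0.0954), and with lines as units ILK was no longer called without MDA231 and MDA435 (0.26, adjusted p = 0.0804), without the 6 CDH1-discordant arrays of 3 lines (adjusted p = 0.052) or without MDA435 PS replicate 3 (adjusted p = 0.0534).

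LIMS1, which encodes PINCH-1, was not resolved. Its 3 own probe sets reached at most 14.9 intensity units on any array, below the filter. A pair of brighter probe sets is annotated to LIMS1 together with LIMS4, or with LIMS4 and LIMS3, near-identical copies whose RNA they cannot separate. 207198_s_at averaged 903 ± 407 intensity units on the PS arrays and 707 ± 318 on the CB arrays (SD, n = 18 each), a difference of 0.34 ± 0.06 (SE, adjusted p = 4.51e-05), and 212687_at averaged 2055 ± 895 on the PS arrays and 1727 ± 829 on the CB arrays, a difference of 0.26 ± 0.07 (SE, adjusted p = 0.00131). Both were positive in 6 of 6 lines; they enter none of the counts of genes given here.

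Paxillin, the adaptor that docks focal adhesion kinase and parvin, was higher in PS: PXN averaged 533 ± 213 intensity units on the PS arrays and 411 ± 146 on the CB arrays, a difference of 0.34 ± 0.09 (SE, adjusted p = 0.00278). In DU145, PXN read 558, 534 and 427 on the PS arrays, against 358, 383 and 344 on the CB arrays. In U251, PXN read 336, 299.6 and 335 on the PS arrays, against 261, 268 and 266 on the CB arrays. In both, all PS arrays lay above all CB arrays, as for 16.7% of all genes in DU145 and 22% in U251. In MDA231, PXN read 1102, 956 and 615 on the PS arrays, against 850.5, 433 and 549 on the CB arrays. MDA231 had the largest difference, 0.55, with overlapping groups, and HT1080 the smallest, 0.24. PXN was called in no single line, but the narrow range of its 6 line differences goes with an adjusted p of 0.00235 when lines were the units. Its other probe set, 211823_s_at, averaged 3.36 intensity units on the PS arrays and 3.18 on the CB arrays and was not tested; with the mean of both, PXN's averaged difference was 0.18, still called.

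The LIM-domain proteins zyxin and LPP, close relatives that bind alpha-actinin and recruit the actin regulators of the Ena/VASP family, were both higher in PS. ZYX averaged 287 ± 115 intensity units on the PS arrays and 195 ± 68.7 on the CB arrays, a difference of 0.50 ± 0.08 (SE, adjusted p = 3.23e-06). In U87, ZYX read 478, 332 and 286 on the PS arrays, against 191, 254 and 249 on the CB arrays. In U251, ZYX read 137, 177 and 142 on the PS arrays, against 78.4, 78.4 and 84.6 on the CB arrays. U251 had the lowest ZYX level and the largest difference, and neither line's groups overlapped. In HT1080, ZYX read 428, 477 and 418 on the PS arrays, against 289, 240 and 270.3 on the CB arrays. In DU145, ZYX read 253, 145 and 126 on the PS arrays, against 150.5, 139 and 168 on the CB arrays. HT1080 was high on all PS arrays; DU145 was the 1 line with overlapping groups, its PS replicate 1 standing above the other 5 arrays. In MDA231, ZYX read 273.5, 355 and 219.5 on the PS arrays, against 186, 200.1 and 179.8 on the CB arrays. In MDA435, ZYX read 300.2, 295 and 318 on the PS arrays, against 275, 262 and 222 on the CB arrays. Their groups did not overlap, but the differences of 0.52 and 0.26 were not called (adjusted p = 0.0971 and 0.453). All PS arrays lay above all CB arrays for 17% of all genes in U87, 22% in U251 and 29.5% in HT1080. That share was 9.11% in MDA231 and 12.3% in MDA435. The called differences were 0.80 ± 0.19 in U251, 0.69 ± 0.19 in HT1080 and 0.60 ± 0.19 in U87 (SE). The U87 call was lost without U87 PS replicate 1 (adjusted p = 0.179) or CB replicate 1 (adjusted p = 0.121), when probe sets were averaged (adjusted p = 0.102) and on the U87 arrays alone (adjusted p = 0.122). In DU145 the difference was -0.088 without its CDH1-discordant arrays, against 0.12 with them. Both ZYX probe sets were called higher, the second, 215706_x_at, by 0.35 ± 0.08 (SE).

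LPP averaged 1139.8 ± 286 intensity units on the PS arrays and 841 ± 215 on the CB arrays, a difference of 0.44 ± 0.07 (SE, adjusted p = 5.78e-06). In U251, LPP read 915, 863.5 and 785 on the PS arrays, against 488, 607.5 and 408 on the CB arrays. In DU145, LPP read 1636.5, 1445.5 and 1539.9 on the PS arrays, against 995, 985 and 941 on the CB arrays. The fractions did not overlap in either line and both differences were called (0.77 and 0.65), though the DU145 call was lost when any 1 of the 6 DU145 arrays was left out (adjusted p 0.0744 to 0.126). It was also lost with equal array medians (adjusted p = 0.0544) and when probe sets were averaged (adjusted p = 0.516). In U87, LPP read 984, 961 and 871 on the PS arrays, against 860.1, 716 and 669 on the CB arrays. In HT1080, LPP read 1459.5, 1331 and 1253 on the PS arrays, against 972, 940.4 and 1132.5 on the CB arrays. Neither of these overlapped, and neither was called. PS above CB without overlap was seen for 17% of all genes in U87, 22% in U251, 29.5% in HT1080 and 16.7% in DU145. In MDA231, LPP read 1129, 956 and 725.5 on the PS arrays, against 949, 682 and 797 on the CB arrays. In MDA435, LPP read 970.1, 1202 and 1489.6 on the PS arrays, against 1249.9, 885 and 864 on the CB arrays. The groups of both lines overlapped, with CB arrays among the PS values. Of the 8 LPP probe sets, 3 were called higher (224811_at, given above, 202822_at at 0.32 ± 0.07 and 202821_s_at at 0.38 ± 0.11), 214902_x_at was called lower (-0.41 ± 0.10), and 4 were not called. With the mean of all 8 the averaged call was lost (0.09, adjusted p = 0.097).

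TES, whose product binds zyxin through its LIM domains, averaged 916 ± 670.0 intensity units on the PS arrays and 985 ± 743 on the CB arrays, a difference of 0.02 ± 0.10 (SE, adjusted p = 0.891, 95% interval -0.18 to 0.22). In HT1080, TES read 1491, 1694 and 1328 on the PS arrays, against 1571, 1881 and 1729 on the CB arrays. In DU145, TES read 1457, 1563.5 and 1634 on the PS arrays, against 1798, 1958 and 1675 on the CB arrays. Those PS arrays averaged below the CB arrays, without overlap in DU145 (as for 14.9% of all genes there). In MDA231, TES read 1412, 1202.5 and 1282 on the PS arrays, against 1275.5, 1114 and 1045 on the CB arrays. In U251, TES read 27.8, 33 and 30 on the PS arrays, against 19.7, 24.1 and 23.2 on the CB arrays. There the PS means were the higher ones, without overlap in U251 (as for 22% of all genes) at a level close to the filter. Differences were positive in 3 lines (0.30 in U87, 0.27 in U251 and 0.18 in MDA231) and negative in 3 (-0.20 in HT1080, -0.22 in DU145 and -0.22 in MDA435), and none was called. TES varied far more in its level between lines; these levels are given below.

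**Figure D3:**
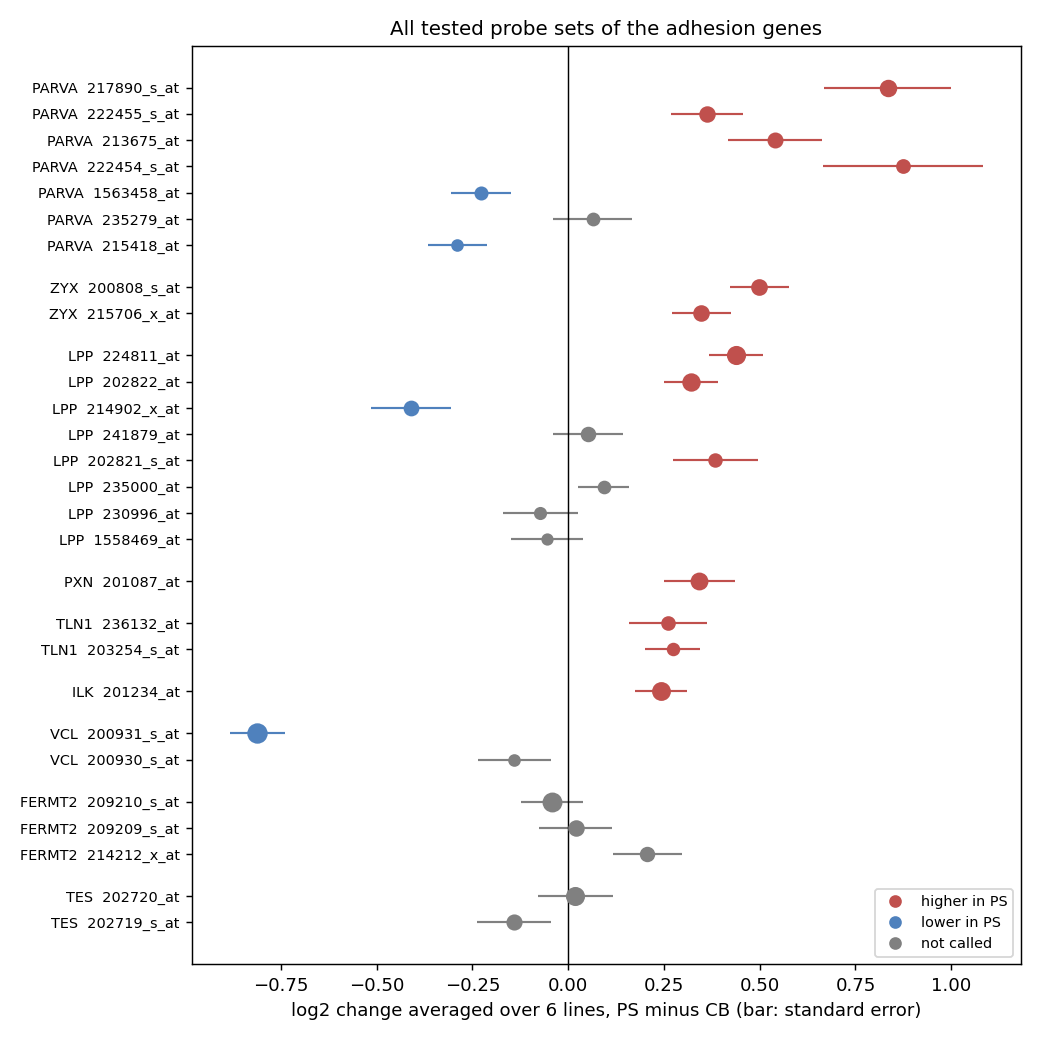
Averaged log2 difference (PS minus CB, horizontal axis) with its standard error (bars) for each of the 28 tested probe sets of the adhesion genes (vertical axis, grouped by gene and ordered by brightness, larger points being brighter). Red points were called higher (13), blue ones lower (4) and grey ones not called (11); PARVA and LPP each have probe sets called in both directions.

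Over all 34 probe sets of the 10 genes, 28 passed the filter, of which 13 were called higher in PS, 4 lower and 11 neither. Among the 35240 probe sets tested on the array, 25.4% were called higher and 24.5% lower. Both tested TLN1 probe sets were called higher, at 0.26 for 236132_at and 0.27 for 203254_s_at, and none of the 3 FERMT2 or the 2 tested TES probe sets was called. Disagreement in sign between called probe sets was found in PARVA and LPP, in each case with the brightest probe set higher.

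Levels in the cell bodies differed between lines for 8 of the 9 genes. The exception was TLN1 (limma's F test over the 6 CB groups, adjusted p = 0.448). As 80.6% of all genes passed this test, 8 of 9 was near the share of all genes. TLN1 did pass when its probe sets were averaged (adjusted p = 0.0317) and with array weights (adjusted p = 0.0164). VCL's call was lost with quantile normalization (adjusted p = 0.479) and with the mean of its probe sets (adjusted p = 0.0935). TES had the widest range of the 9 genes. It averaged 1810 ± 142 intensity units in DU145, 1727 ± 155 in HT1080, 1145 ± 118 in MDA231, 1127 ± 321 in MDA435, 79.8 ± 25 in U87 and 22.3 ± 2.32 in U251 (SD, n = 3 each). DU145 and HT1080 overlapped, as did MDA231 and MDA435, whereas the steps from HT1080 to MDA231, from MDA435 to U87 and from U87 to U251 were free of overlap. The U251 mean lies under the filter of 24.4 intensity units, so no fold is given against it. TES was thus lowest in both glioblastoma lines, where its PS arrays were low too, at 64.2 to 135 intensity units in U87 and 27.8 to 33 in U251. PARVA had the next widest range, from 573 ± 282 in MDA231 and 419 ± 65.1 in U87 through 321 ± 28.4 in MDA435, 170.1 ± 2.67 in HT1080 and 146 ± 56.4 in U251 to 33.4 ± 23.4 in DU145. MDA231 overlapped with U87, and HT1080 with U251; the other neighbours in that order did not overlap. In DU145, 1 of the 3 CB arrays (9.9) was under the filter, so no fold is given there either. DU145, the line with the least PARVA, still had a PS against CB difference of 1.00, not called.

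The remaining genes varied less. ILK was 2.71-fold higher in U87 (1446 ± 104) than in DU145 (533 ± 55.1), with gaps below U87 and below HT1080 in the order of levels. ZYX ranged 3.31-fold, from 266.5 ± 24.8 in HT1080 to 80.5 ± 3.58 in U251, with DU145 and U251 each clear of the line above. FERMT2 ranged 2.57-fold, from 1929 ± 209 in U87 to 752 ± 148 in MDA435, and the MDA435 arrays alone did not overlap with the next line. PXN ranged 2.31-fold (611 ± 216 in MDA231 to 265 ± 3.25 in U251) and LPP 2.03-fold (1015 ± 103 in HT1080 to 501 ± 100.3 in U251), each with U251 alone clear of its neighbour. VCL ranged 1.64-fold, from 3452 ± 277 in U87 to 2105 ± 138 in MDA435, with a gap between U251 and HT1080, and the 1.52-fold range of TLN1 held no gap at all. U251 had the lowest mean of 5 genes (ZYX, LPP, PXN, TLN1 and TES).

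**Figure D4:**
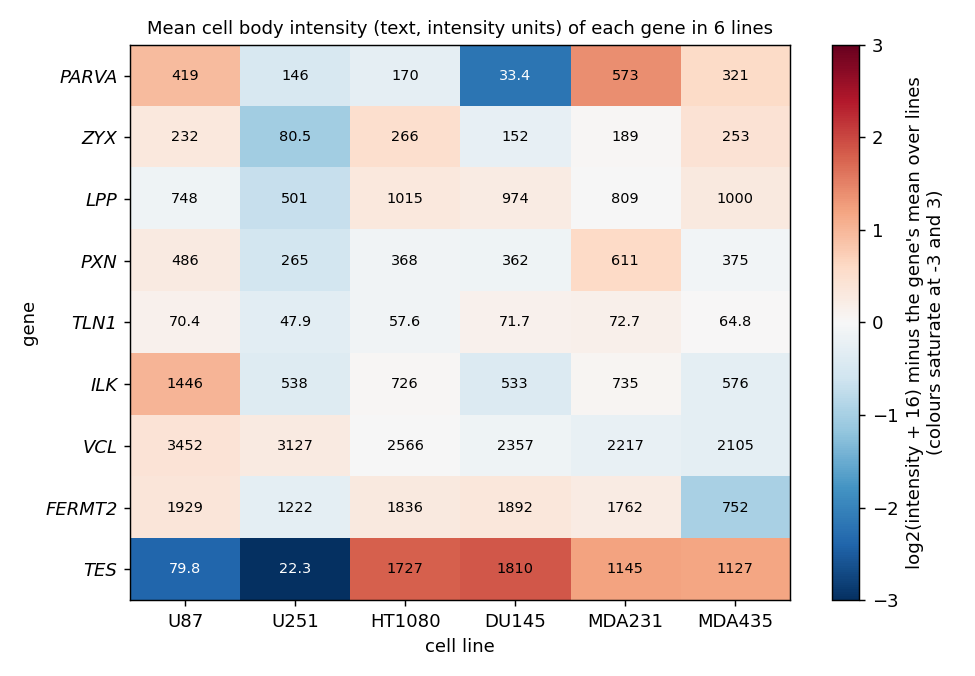
Mean cell body intensity of 9 adhesion genes (rows) in 6 lines (columns), printed in each cell; colour gives log2(intensity + 16) minus the gene's own mean over the lines, so colours compare lines within a gene and not genes with each other. TES is deep blue in U87 (79.8) and U251 (22.3), and PARVA in DU145 (33.4).

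A promoter of TES is shown because TES varied most between the lines. RefSeq's table holds 2 windows for TES, each of 250 bases before and 50 after a start, on the + strand of GRCh38.p14. The one printed, chr7:116210289-116210588, holds 38 CG dinucleotides (capitals) in its 300 bases and is 74.3% G or C; of 35116 such windows, 9.91% hold at least as many. The other, chr7:116222703-116223002, holds 4 and is 38.7% G or C, and 75.5% of the windows hold at least as many. Which start these lines use, and whether the DNA is methylated, was not measured here.
TES promoter: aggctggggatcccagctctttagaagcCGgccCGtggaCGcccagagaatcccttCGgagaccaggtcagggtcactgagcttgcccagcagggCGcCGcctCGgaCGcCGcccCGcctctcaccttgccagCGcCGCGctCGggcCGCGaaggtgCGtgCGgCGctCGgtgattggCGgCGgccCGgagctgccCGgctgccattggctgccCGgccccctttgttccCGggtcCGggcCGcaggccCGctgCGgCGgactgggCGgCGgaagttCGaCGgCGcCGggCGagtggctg

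The wider set of adhesion genes was described with 4 further gene lists. Of 15 tested paralogs of the 10 genes, 5 were higher in PS and 0 lower, with a median difference of 0.18; among all genes the shares were 29.5% and 20.8% and the median 0.05, so the paralogs' share of risers was near that of all genes. They were TGFB1I1, a paxillin relative also known as Hic-5 (691 on the PS arrays against 463 on the CB arrays, 0.53 ± 0.13), PARVB, which encodes beta-parvin (0.35 ± 0.09), the zyxin-family genes WTIP (0.30 ± 0.09) and TRIP6 (0.30 ± 0.07), and LMCD1 (0.28 ± 0.08). WTIP was dim, averaging 22.6 intensity units on the PS arrays and 14.2 on the CB arrays. Of 34 other cytoplasmic adhesion genes, 16 were higher and 3 lower, with a median of 0.20. PDLIM2, a PDZ and LIM domain protein, rose most (811 on the PS arrays against 412 on the CB arrays, 0.82 ± 0.08), and CSRP2, a LIM protein that binds alpha-actinin, also rose (0.54 ± 0.09). SVIL, which encodes the actin-bundling membrane-skeleton protein supervillin (438 on the PS arrays against 659 on the CB arrays, -0.71 ± 0.10), and the alpha-actinin gene ACTN4 (727 on the PS arrays against 1016 on the CB arrays, -0.54 ± 0.11) fell. ACTN1, the other widely expressed alpha-actinin, was also called lower (-0.17 ± 0.07), with a positive difference in 3 of 6 lines. Of 32 adhesion signalling genes, 12 were higher and 2 lower, with a median of 0.18. CSK, the kinase that inhibits Src (0.54 ± 0.08), and RAPGEF1, an exchange factor recruited by Crk (0.46 ± 0.09), were among the risers. The fallers were PEAK1, a pseudokinase (-0.45 ± 0.05), and PTPRA, a phosphatase that itself spans the membrane (-0.67 ± 0.06).

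The integrins and their membrane partners went the other way: 33 of 34 tested were lower in PS and 0 higher, with a median difference of -0.89. CD151, a tetraspanin that binds laminin-receptor integrins, averaged 233 on the PS arrays against 643 on the CB arrays (-1.38 ± 0.13). BSG, which encodes basigin, averaged 282 on the PS arrays against 721 on the CB arrays (-1.36 ± 0.13), the syndecan SDC1 441 on the PS arrays against 1086 on the CB arrays (-1.34 ± 0.10), and the integrin alpha-V gene ITGAV 976 on the PS arrays against 2257 on the CB arrays (-1.33 ± 0.12). CAV1, which encodes caveolin-1, was the 1 gene of that list not called (-0.09, adjusted p = 0.347). The fall of VCL, read from its brighter probe set, was larger than the difference of 15 of these 34 genes and smaller than that of 19. Under equal array medians and under quantile normalization, the median of every list kept its sign, though counts moved. Under equal array medians 7 of 15 paralogs, 21 of 34 other cytoplasmic genes and 21 of 32 signalling genes were higher, with 0, 2 and 2 lower; under quantile normalization 5, 17 and 15 were higher. These scalings left 31 and 34 of the 34 membrane genes lower and 6 of the 9 cytoplasmic adhesion genes higher under both. Among the 15399 genes tested, 6325 were higher and 2525 lower under equal array medians. The counts were 5196 and 2806 under quantile normalization, against 4550 and 3204 as deposited. Because the lists were drawn up with earlier results known, these counts are descriptions and no list was tested.

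**Figure D5:**
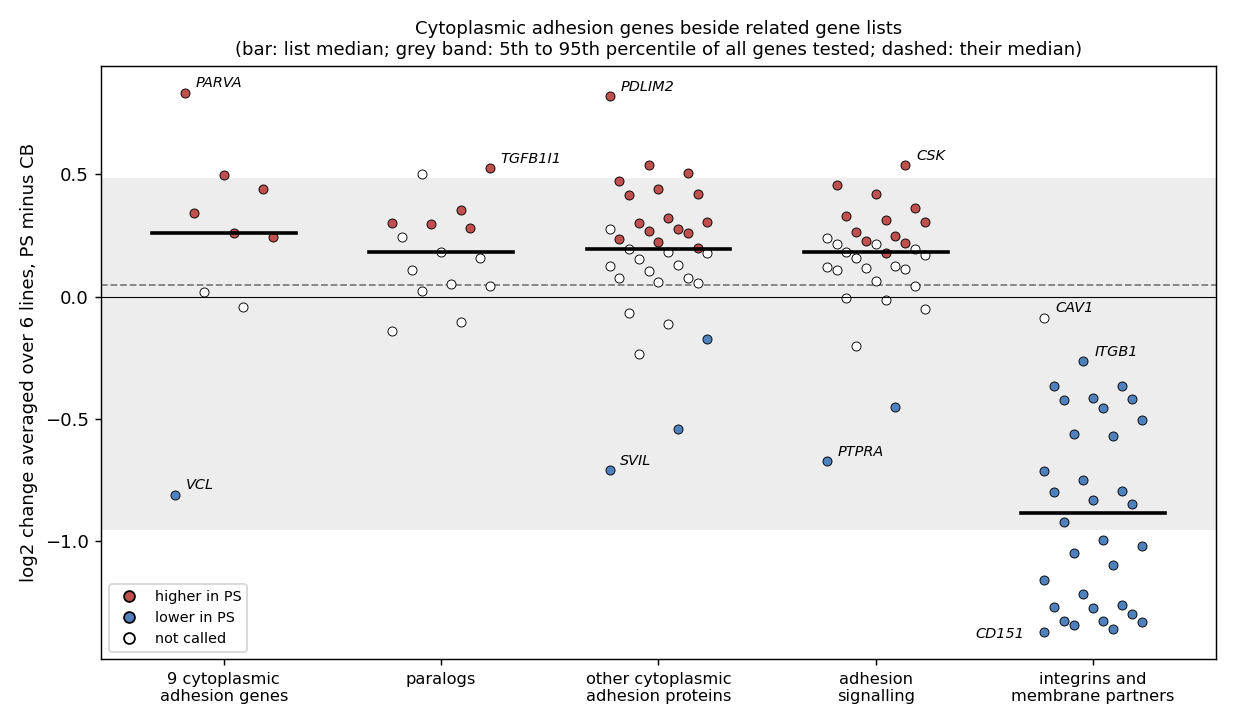
Averaged log2 difference (PS minus CB, vertical axis) of every tested gene in 5 lists (horizontal axis), red where called higher, blue where called lower and white where not called, with a bar at each list's median; the grey band runs from the 5th to the 95th percentile of all genes tested (-0.95 to 0.48) and the dashed line is their median (0.05). VCL lies among the values of the integrins and membrane partners, whose median is -0.89.

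Of 7 tested RNAs on a list drawn up as nuclear, 4 were lower in PS and 1 higher (20.8% and 29.5% of all genes). Where each of these RNAs lies in these cells was not measured. The ribosomal precursor RNA45SN5 (mean 60.0 on the PS arrays against 599 on the CB arrays, -3.25 ± 0.23), SNORA21 (-1.78 ± 0.13), FTX (-0.87 ± 0.07) and MALAT1 (-0.69 ± 0.14) fell, and OIP5-AS1 (0.33 ± 0.07) rose. MEG3 (0.08, adjusted p = 0.414) and KCNQ1OT1 (-0.03, adjusted p = 0.895) were not called. The 6 mesenchymal markers (VIM, FN1, CDH2, COL1A2, COL6A3 and LOX) had a lower sum on all 3 PS arrays than on all 3 CB arrays in 4 lines. It was 9629 to 16007 intensity units on the PS arrays against 19259 to 26573 on the CB arrays in U87, and 4987 to 6761 in PS against 7492 to 8890 in CB in U251. It was 6967 to 11383 in PS against 12038 to 14229 in CB in HT1080, and 3641 to 4399 in PS against 5111 to 6671 in CB in MDA435. The sums overlapped in DU145 (3492 to 3863 in PS, 3504 to 3829 in CB) and in MDA231 (4338.5 to 5183 in PS, 4193 to 5630.1 in CB). The 5 glial or neural genes also summed to less on all PS arrays in 4 lines: 104 to 355 in PS against 562 to 747 in CB in U87, 4604 to 5694 in PS against 7230 to 8194.5 in CB in U251, 84.7 to 116 in PS against 215 to 331 in CB in HT1080, and 259 to 598 in PS against 972 to 1147 in CB in MDA435. The 8 epithelial genes summed to more on all PS arrays in HT1080, 2997 to 3367 in PS against 2112 to 2227 in CB. KRT18 made up much of that sum, at 1846 to 2066 in PS against 1216 to 1277 in CB. CDH1, EPCAM and KRT19 read at most 12.4 on any HT1080 array, so the sum does not stand for epithelial genes in general. The part of the RNAs of that list and of these markers in the differences of the adhesion genes was not tested.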

How the data were processed

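Gene expression was measured on 36 Affymetrix HG-U133 Plus 2.0 arrays, 3 for each of 12 groups. The deposited values are linear intensities, 1 per probe set and array, that share a trimmed mean of 149 on every array (2% trimmed at each end) with medians of 18.2 to 30.6. RMA and Partek are named in the submitters' processing notes with no role or version; the deposited scale is not RMA's log2 scale, and which program made it is not stated in the sources at hand. Arrays have no read depth, and their number limits the precision.

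From the deposited intensities, log2(intensity + 16) was taken and fitted across all genes by limma 3.58.1 (R 4.3.3) as 1 mean for each of the 12 groups, leaving 24 residual degrees of freedom. Single symbols were carried by 41074 of 54593 probe sets (1798 had several and 11721 none), and 41020 were updated through Entrez identifiers to the RefSeq table of GRCh38.p14. Each gene was read from its brightest probe set, judged by the mean of the 36 arrays. Genes were tested where the highest group mean reached 24.4 intensity units, the median of all values, which kept 15399 of 19775 genes and 35240 probe sets. P-values were adjusted over all of them by Benjamini-Hochberg, and 0.05 was the threshold. PS minus CB was taken in each line, averaged over the lines, compared between lines by an F test, and tested with the 6 line differences as units. The fit was also run on simulated data, drawn with independent noise and 1 spread per gene. Those data do not copy the unequal spread of these groups or deviations shared between arrays, so that run does not bear on either.

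The 10 genes and all lists were chosen with earlier results of these data known. From each list, up to 4 called genes with the largest averaged change were named. LMCD1, ACTN1, CAV1, OIP5-AS1, MEG3 and KCNQ1OT1 fall outside that rule and were named after their values were seen; CDH1 and the other marker genes come from the marker lists. The alternatives were pseudocounts of 1 and 64, no filter and a filter of 100, equal array medians, quantile normalization, the mean of all probe sets, leaving out probe sets shared between transcripts, array weights, a replicate block, single lines alone, and leaving out each array, the 4 arrays that disagree on CDH1, or MDA231 and MDA435. Leaving out 2 DU145 arrays as well was added after seeing the data. Replicate numbers are shared between PS and CB, but most same-numbered arrays did not deviate together, and the reported fit is unpaired.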

Additional observations from a re-analysis of the deposited data

How the results depend on the processing

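Of 1113 values of single adhesion genes under the alternatives that leave out no single array, 1040 kept their direction and side of the threshold, 22 lost a call, 29 gained one and 22 turned sign, none of which was a called value. The averaged calls of PARVA, ZYX, PXN, ILK and VCL stood under every such alternative that tested them, and leaving out 1 array at a time left 5 to 6 genes called higher and 1 lower. Without probe sets shared between transcripts, VCL, ZYX and FERMT2 were not tested and 0 genes were called lower, both averaged and with lines as units. LPP lost its averaged call when its probe sets were averaged (0.09, adjusted p = 0.097), and TLN1 lost it then and with the replicate block (adjusted p = 0.0551).

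The count of all genes called in DU145, 459, was 300 with a pseudocount of 1, 765 with 64, 294 with equal array medians, 744 when probe sets were averaged, 3294 with array weights, 866 without the 4 arrays that disagree on CDH1 and 1303 from its 6 arrays alone. It was 67 without DU145 PS replicate 1 and CB replicate 3 as well, a setting chosen after seeing the data, in which ILK was -0.098 and ZYX -0.088 in DU145. The interaction count of 181 was 20 with a pseudocount of 1, 410 with 64, 2374 with array weights, 276 without MDA231 and MDA435, and 293 without the 4 arrays. Array weights gave 4372 in U251 (2263 in the reported fit), 6189 in HT1080 (3833), 4120 in MDA231 (935) and 5162 in MDA435 (1813). From its own 6 arrays, U87 had 1356 (3622), MDA435 724 and MDA231 0 by limma, with 2168 at an unadjusted p under 0.05. Same-numbered PS and CB arrays deviated together, with a correlation above 0.1, in 4 of 18 pairs (-0.778 to 0.688), and 3 of 18 correlated best with their own number. Differently numbered PS and CB arrays correlated at up to 0.816 in MDA231, 0.796 in MDA435 and 0.562 in DU145. A fit paired by such matches was not run. The replicate block gave 131 in DU145, 456 in MDA231 and 43 for the interaction, and 5 adhesion genes higher and 1 lower; ZYX in U87 (adjusted p = 0.0574) and LPP in DU145 (0.104) were not called with it.

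The values that turned sign were not called in the reported fit, and the cause was not tested. TES averaged -0.017 with a pseudocount of 64, -0.023 with array weights and -0.042 when its probe sets were averaged. FERMT2 averaged 0.055 with equal array medians and 0.061 when its probe sets were averaged; under those settings it was 0.017 and 0.018 in HT1080 and 0.070 and 0.090 in DU145, and in MDA231 it was -0.11 with quantile normalization and -0.031 with array weights. ILK in DU145 was -0.022 with quantile normalization and -0.017 with array weights. When probe sets were averaged, LPP was -0.029 in U87 (0.33 in the reported fit) and -0.073 in MDA231 (0.20), and TLN1 -0.031 in DU145. Leaving out 1 array gave 2154 to 4453 calls in U87, 1475 to 2494 in U251, 93 to 861 in DU145, 247 to 1357 in MDA231, 1046 to 2072 in MDA435 and 116 to 792 for the interaction. It gave -0.041 to 0.067 for TES averaged and -0.58 to 0.066 in MDA435. FERMT2 was -0.077 to 0.0021 averaged, -0.11 to 0.0054 in HT1080, -0.18 to 0.29 in MDA231 and -0.29 to 0.13 in MDA435. ILK was -0.056 to 0.083 in DU145 and -0.033 to 0.15 in MDA435. TLN1 was -0.020 to 0.20 in U251, -0.19 to 0.26 in DU145 and -0.086 to 0.33 in MDA231, and ZYX -0.16 to 0.31 in DU145. With lines as units, TES and FERMT2 had the same values as averaged, array weights aside. Many probe sets read close to background, where differences are understated.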

Other observations

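For each adhesion gene, the tested gene whose 12 group means correlated best with its own was found, as a description with no test, since the groups share lines and fractions. Pearson's r over the 12 group means was 0.986 between VCL and B4GAT1, a glycosyltransferase gene, 0.971 between ILK and TTC8, and 0.969 between FERMT2 and CAMK1D. PXN was most like LASP1, itself a gene of a LIM and SH3 protein of adhesions, at 0.960. PARVA was most like RIOK2 (0.958), TES like PPP1R13B (0.958), ZYX like KHNYN (0.953), TLN1 like MAX (0.937) and LPP like KDM7A-DT (0.932). Among the adhesion genes themselves the highest r was 0.781, between ZYX and TLN1, and the lowest was -0.692, between LPP and VCL.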
